A study of Rattus norvegicus with 12 samples.

Results

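Pvalb, Calb1 and Calb2 encode parvalbumin, calbindin D-28k and calretinin, the calcium-binding proteins most often used to tell apart neuron types and subdivisions of the inferior colliculus (IC). They were taken as probes of the deposited table with exactly 1 gene symbol among these 3 names, keeping the brightest probe per gene. Each of the 3 genes had 1 such probe, so no choice between probes arose, and they are 3 of 18166 measured genes. The array covered them with probe 17838988 for Pvalb (Entrez 25269), probe 17797389 for Calb1 (Entrez 83839) and probe 17733466 for Calb2 (Entrez 117059). Genome positions are not printed, because no source used here gives the genome build behind the probes.

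The tissue came from Sprague-Dawley (SD) rats, 20 with the right cochlea ablated (the single-sided deaf arm) and 20 sham-operated, whose skin was cut behind the ear while the bulla was not drilled. The 12 arrays form 4 groups of 3, all taken 2 weeks after surgery: left deaf, right deaf, left control and right control, where left and right name the side of the IC. The left IC lies opposite the ablated ear and the right IC on its side. The labels give no age, and they leave unsaid whether each array stands for 1 animal or several and whether left and right arrays of one number come from the same animals, so p-values here reflect array-to-array spread that could in part be technical. Hippocampus is named in the series title and in the sample descriptions, which for the deaf arrays also speak of noise, whereas titles, tissue entries and source names give the IC, and the design text gives the IC and cochlear ablation. Of 18 tectal and midbrain markers 9, and of 14 forebrain and hippocampal markers 8, had mean levels above the median of all genes, shares near that of any genes, so these counts do not tell the regions apart. The brightest of the tectal list were Tfap2d (mean log2 intensity 9.60) and Meis2 (9.34), and the dimmest was Zic5 (5.03). The brightest of the forebrain list were Nrgn (11.25) and Ociad2 (7.40), and the dimmest was Neurod6 (3.40), a defining gene of forebrain excitatory neurons.

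All 3 proteins bind calcium through EF-hand domains. Parvalbumin and calbindin D-28k are regarded mainly as buffers that shape the size and duration of calcium transients, and calretinin as a fast buffer, with sensor roles described for calbindin. In the auditory midbrain, parvalbumin is known as a marker of the central nucleus, the main target of ascending auditory axons, whereas calbindin and calretinin are better known from the surrounding cortical divisions. Immunostaining for these proteins has long been used to follow how auditory centres respond to lost hearing, which is the setting of the deaf against control comparison here.

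Values below are log2 intensities as deposited, and a change is the difference of group means with its standard error (SE) from a limma fit to all 12 arrays, with p-values adjusted by Benjamini-Hochberg over all 18166 genes. Changes are compared within a gene; probes differ in brightness, so a gene's rank among all genes describes the brightness of its probe and not its amount of RNA. No source used here gives detection calls, but the 3 genes were far from the dim end: Pvalb had a higher mean level than 95.9% of genes, Calb2 than 96.3% and Calb1 than 69.6%. One array, right control 3, stood apart on the first principal component of all genes, with a score of 27.3 against -15.0 to 8.68 on the other 11 arrays. Without it, the right change was -0.029 for Pvalb and -0.12 for Calb1, and 0 of the 3 genes passed in any comparison.

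None of the 3 genes differed between deaf and control IC on either side beyond the spread between arrays. These are whole-tissue levels, in which fewer cells of a type and less RNA per cell cannot be told apart. Pvalb, the parvalbumin gene, was at 9.40, 9.10 and 8.95 in left deaf arrays, against 9.09, 9.34 and 9.11 in left control arrays. In the right IC it was at 9.23, 9.16 and 9.09 in deaf arrays, against 9.23, 9.15 and 9.05 in control arrays. Both the highest and the lowest Pvalb values of the study came from the left deaf group, whose 3 arrays enclosed all 3 left controls, and the right-side groups overlapped as well. The group means were 9.15 ± 0.23 in left deaf and 9.18 ± 0.14 in left control, and 9.16 ± 0.069 in right deaf and 9.14 ± 0.091 in right control (SD, n = 3 each).

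The change of Pvalb was -0.032 on the left (SE 0.12, limma adjusted p = 1.00) and 0.018 on the right (SE 0.12, limma adjusted p = 1.00). As folds, the 95% confidence interval of the left change ran from 0.819 to 1.17, and that of the right change from 0.848 to 1.21.

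**Figure D1:**
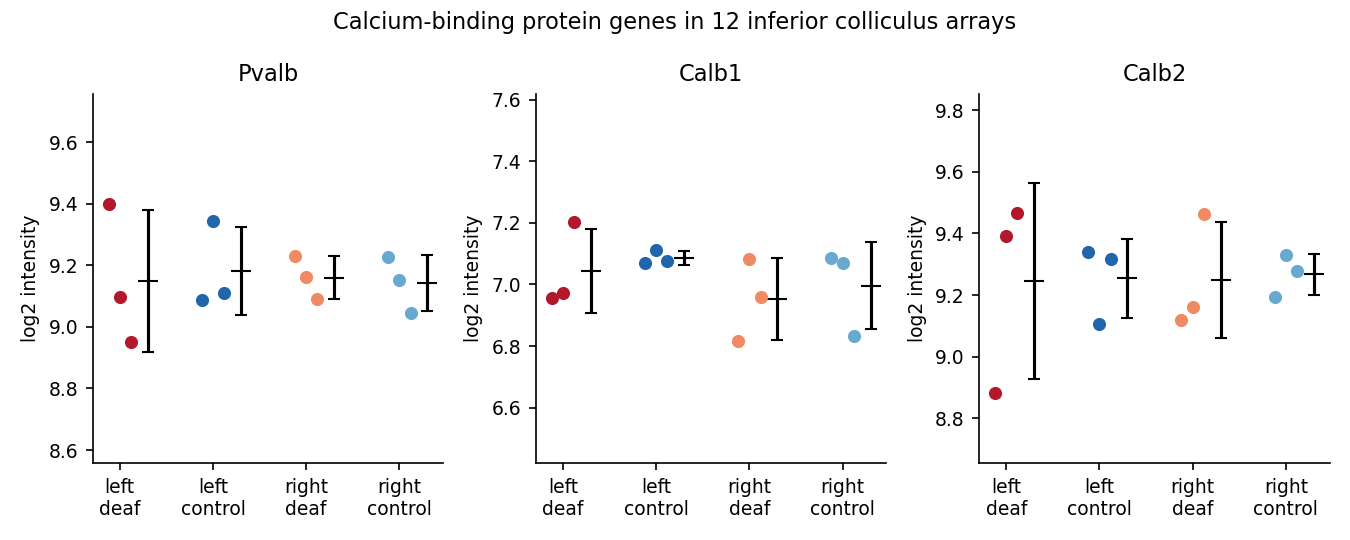
Log2 intensity of Pvalb, Calb1 and Calb2 on each array, by group; each axis spans the same range of log2 units, points are arrays, and the black marks beside them are the group mean and SD (n = 3). Deaf and control points overlap on both sides for all 3 genes, and the widest spread is that of left deaf arrays for Pvalb (8.95 to 9.40) and Calb2 (8.88 to 9.47).

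Calb1, the calbindin D-28k gene, was at 6.96, 6.97 and 7.20 in left deaf arrays, against 7.07, 7.11 and 7.08 in left control arrays. In the right IC it was at 6.82, 7.08 and 6.96 in deaf arrays, against 7.09, 7.07 and 6.83 in control arrays. The 3 left controls lay within 0.040 of each other, and 2 of the 3 left deaf arrays lay below them and 1 above, so the groups overlapped on both sides. Means were 7.04 ± 0.14 in left deaf and 7.09 ± 0.022 in left control, and 6.95 ± 0.13 in right deaf and 6.996 ± 0.14 in right control (SD, n = 3 each). The change was -0.042 on the left (SE 0.10, limma adjusted p = 1.00, fold 0.831 to 1.13 at 95% confidence) and -0.043 on the right (SE 0.10, limma adjusted p = 1.00, fold 0.831 to 1.13).

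Calb2, the calretinin gene, had the highest SD of the 3 genes in both deaf groups, but not in either control group. It was at 8.88, 9.39 and 9.47 in left deaf arrays, against 9.34, 9.11 and 9.32 in left control arrays. In the right IC it was at 9.12, 9.16 and 9.46 in deaf arrays, against 9.20, 9.33 and 9.28 in control arrays. The lowest and the highest values of the study both came from the left deaf group, and the groups overlapped on both sides. Means were 9.25 ± 0.32 in left deaf and 9.25 ± 0.13 in left control, and 9.25 ± 0.19 in right deaf and 9.27 ± 0.068 in right control (SD, n = 3 each).

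The change of Calb2 was -0.0076 on the left (SE 0.15, limma adjusted p = 1.00, fold 0.795 to 1.24 at 95% confidence) and -0.019 on the right (SE 0.15, limma adjusted p = 1.00, fold 0.789 to 1.23). The 4 group means of Calb2 spanned 0.021, a smaller span than that of 99.7% of genes, and those of Pvalb spanned 0.039, smaller than in 98.0% of genes. Among genes within 0.5 log2 units of their level (median span 0.10 for each), 1.20% had a smaller span than Calb2 and 6.54% a smaller span than Pvalb. For Calb1 the 4 means spanned 0.13, close to the median of 0.14 among the 3290 genes within 0.5 log2 units of its level. The closeness of the means did not come with closeness of the arrays: the SD of Calb2 over the 12 arrays was 0.17, higher than in 95.1% of the 834 genes of like level (median SD 0.090), and that of Pvalb was 0.13, higher than in 81.2% of 948 such genes (median SD 0.090). Calb1 had an SD of 0.11, near the median of its neighbours, 0.12.

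By limma 0 of 18166 genes passed an adjusted p of 0.05 on the left and on the right (0% each), and 3.69% on the left and 4.31% on the right had an unadjusted p under 0.05; of the 3 calcium-binding genes 0 did on either side. Averaged over both sides, the changes were -0.0066 for Pvalb (SE 0.083), -0.042 for Calb1 (SE 0.073) and -0.013 for Calb2 (SE 0.10), each with a limma adjusted p of 1.00. Their 95% intervals, as folds, ran from 0.878 to 1.13, from 0.870 to 1.08 and from 0.846 to 1.16. Again 0% of all genes passed after adjustment and 4.53% before it. An exact permutation test of the same mean, two-sided and with arms exchanged within each side (400 regroupings, smallest possible p = 0.005), gave p = 0.93 for Pvalb, 0.515 for Calb1 and 0.905 for Calb2. Within 1 side, 3 arrays against 3 cannot give an exact p below 0.1.

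The left and right IC did not differ in these genes beyond the array spread either. In deaf rats, left minus right was -0.011 for Pvalb (SE 0.12), 0.090 for Calb1 (SE 0.10) and -0.0018 for Calb2 (SE 0.15), each with a limma adjusted p of 1.00. In control rats, it was 0.039 for Pvalb (SE 0.12, limma adjusted p = 0.984), 0.090 for Calb1 (SE 0.10, adjusted p = 0.952) and -0.013 for Calb2 (SE 0.15, adjusted p = 0.996). The side difference of Calb1 was thus below its standard error in both arms. Of all genes 0% passed in either comparison after adjustment, and 3.34% in deaf and 4.95% in control rats had an unadjusted p under 0.05.

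The side by deafness interaction, which tests whether the left change differs from the right change, was -0.050 for Pvalb (SE 0.17), 0.00042 for Calb1 (SE 0.15) and 0.011 for Calb2 (SE 0.21), each with a limma adjusted p of 1.00. Its 95% intervals were the widest of the comparisons, from -0.41 to 0.31 for Pvalb, from -0.32 to 0.32 for Calb1 and from -0.45 to 0.47 for Calb2 on the log2 scale. After adjustment 0% of genes passed, against 3.42% before it.

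**Figure D2:**
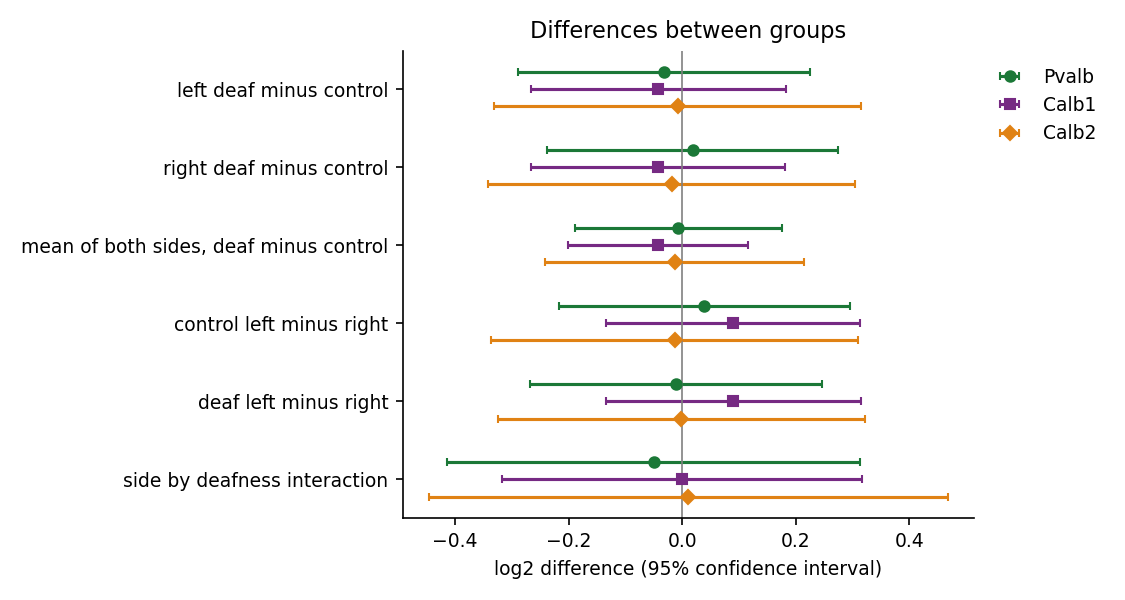
Log2 differences of Pvalb, Calb1 and Calb2 in the 6 comparisons; symbols are differences of group means (3 arrays a group) and bars the 95% confidence interval of the limma fit. All 18 intervals include 0, and the interaction of Calb2 has the widest, from -0.45 to 0.47.

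What did vary was the balance of Pvalb and Calb2 from array to array. The array with the highest Pvalb, left deaf 1 (9.40), had the lowest Calb2 (8.88), and the array with the lowest Pvalb, left deaf 3 (8.95), had the highest Calb2 (9.47). Left control 2, second highest in Pvalb (9.34), was second lowest in Calb2 (9.11). Over the 12 arrays Pearson's r was -0.90 (two-sided permutation p = 1.8e-04, adjusted p = 5.4e-04 over the 3 pairs of genes) and Spearman's rho was -0.86 (permutation p = 7.4e-04, adjusted p = 0.00222).

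Since the group means hardly differ, this opposition lay within the groups. For deviations from the group means r was -0.90 and rho -0.80, with exact permutation p = 0.00386 and 0.00694 (adjusted p = 0.0116 and 0.0208) when arrays were exchanged within groups only, in 1296 ways. By arm, r was -0.94 over the 6 deaf and -0.87 over the 6 control arrays, and by side -0.96 over the 6 left and -0.67 over the 6 right arrays. Without the 2 arrays farthest from the median of Pvalb, left deaf 1 and left control 2, r was -0.78, and with each array left out in turn it ran from -0.92 to -0.83.

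Calb1 took no clear part in this pattern. Its r with Pvalb was -0.16 and its rho -0.070 (permutation p = 0.625 and 0.833), and its r with Calb2 was 0.26 and its rho 0.17 (permutation p = 0.417 and 0.601), with adjusted p = 0.625 for both r and 0.833 for both rho. The sign of r between Calb1 and Pvalb was not stable, at -0.61 over deaf and 0.63 over control arrays.

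**Figure D3:**
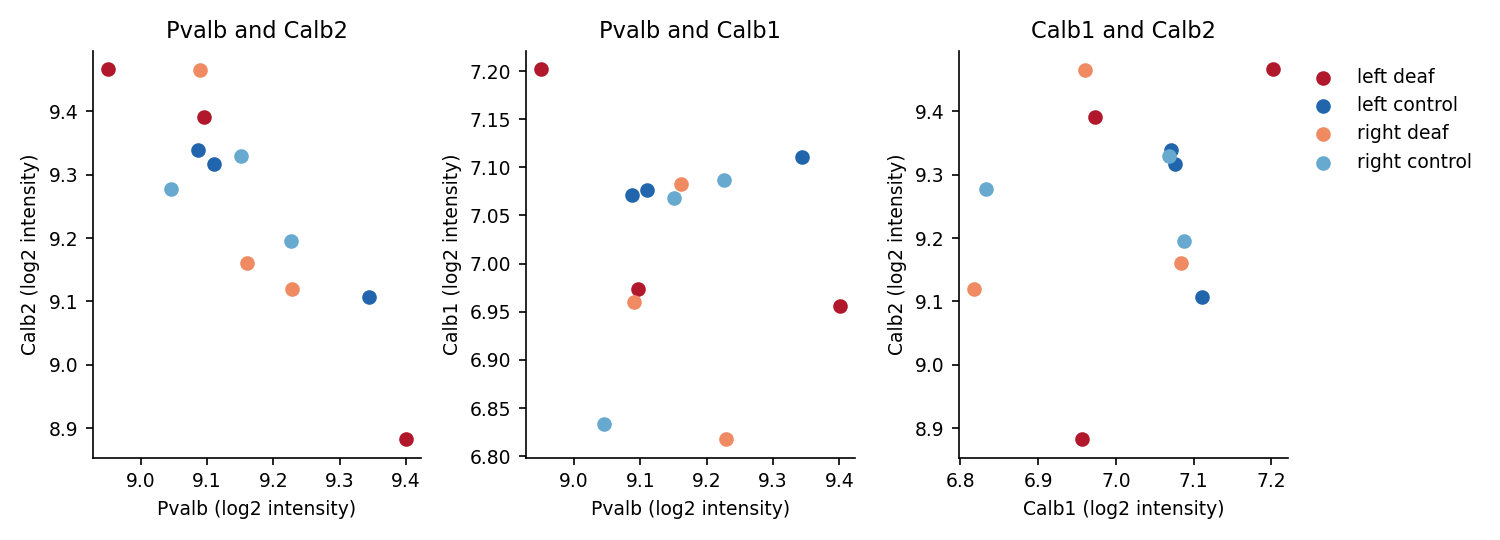
Log2 intensity of each pair of genes on the 12 arrays, one point per array coloured by group. Pvalb and Calb2 fall along a descending line (r = -0.90) from left deaf 3 at the top left to left deaf 1 at the bottom right, whereas the pairs with Calb1 (r = -0.16 and 0.26) show no line.

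The opposition was strong on the scale of all genes. Of 9008 other named genes above the median level, 0 had a lower r with Pvalb than Calb2 did, and 2 had a lower r with Calb2 than Pvalb did. An r beyond 0.8 in either direction was found with 0.599% of these genes for Pvalb, 0.944% for Calb2 and 0.988% for Calb1. These values share arrays and processing, and they describe the arrays without a test.

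**Figure D4:**
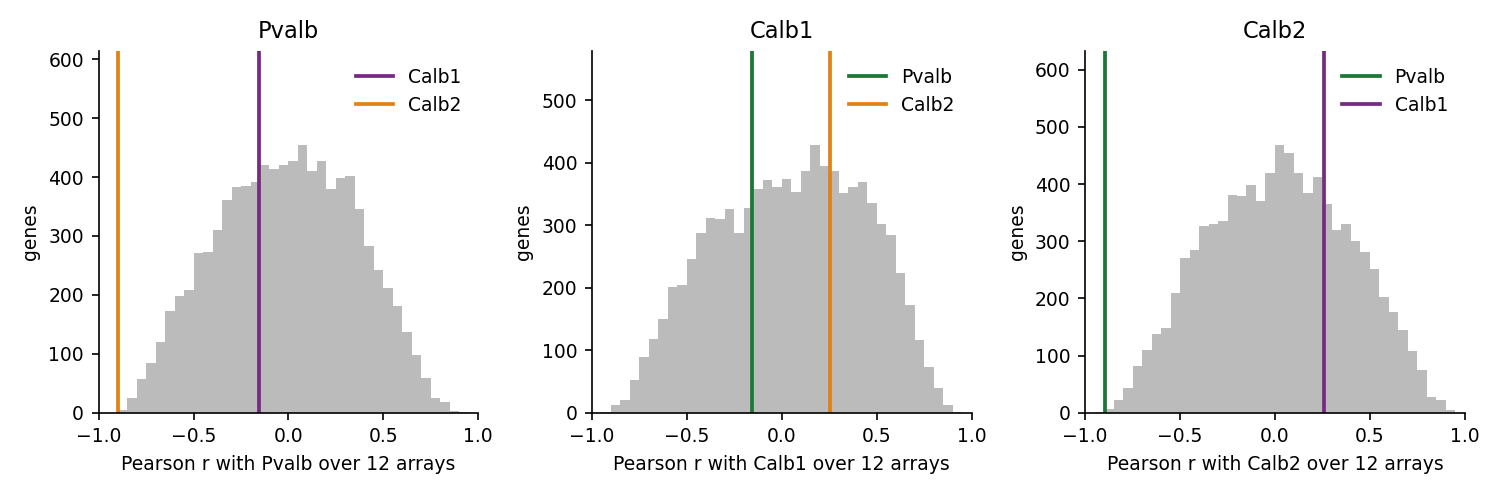
Pearson's r over 12 arrays between each of the 3 genes and 9008 other named genes above the median level (grey bars, genes per 0.05 of r), with coloured lines at the r of the other 2 genes. Calb2 lies beyond the low end of the Pvalb distribution and Pvalb at the low end of the Calb2 distribution (both -0.90), whereas the remaining lines, between -0.16 and 0.26, lie in the bulk.

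The genes whose pattern was most like Pvalb were Arhgef12 (r = 0.91), Rapgef3 (0.90), the gene of a cAMP-activated exchange factor, Dync1h1 (0.88), the cytoplasmic dynein heavy chain gene, Scrib (0.86), a cell polarity gene, and Mib1 (0.85), a ubiquitin ligase gene of Notch signalling. Most opposite to Pvalb were Cib2 (-0.87), the gene of an EF-hand protein needed in hair cells, Slc25a11 (-0.87), a mitochondrial 2-oxoglutarate carrier gene, and Kcnk2 (-0.86), the gene of the potassium channel TREK-1. Of the 8 genes so named for Calb2, 3 were also among the 8 named for Pvalb, each with the opposite sign. Slc25a11 was most like Calb2 (0.94), followed by Hpca (0.91), the gene of the neuronal calcium sensor hippocalcin, Zfp746 (0.91), Ints14 (0.90) and C20h22orf15 (0.90), and Rapgef3 (-0.93), Arhgef12 (-0.93) and Ubr4 (-0.87) were most opposite. Calb1 had another set, with Rfc1 (0.92), Pcyt1a (0.91), Nme7 (0.89), Kbtbd3 (0.89) and Rpap2 (0.89) most like it and Tspyl1 (-0.93), Pgk1 (-0.93) and Vasn (-0.89) most opposite.

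A feature of the arrays set apart 3 of them that lay at 1 end of the balance of Pvalb and Calb2. The 3 arrays with the lowest Calb2, left deaf 1, right deaf 1 and left control 2, had the 3 highest scores on the second principal component of all genes (11.3% of the variance), at 19.3, 10.3 and 7.45, while the other 9 arrays lay between -10.4 and -0.34. These 3 arrays also held the 3 highest Pvalb values (9.40, 9.23 and 9.34), although right control 1, at 9.23 as well, had a score of -9.02. Over the other 9 arrays r between Pvalb and Calb2 was -0.71. The genes that varied with or against Pvalb over these arrays also differed in size, as given by the RefSeq annotation (assembly GRCr8). The 100 genes most like Pvalb had a median genomic span of 54.2 kb and the 100 most opposite 15.4 kb, against 27.4 kb for all ranked genes. For Calb2 the medians were 19.1 kb for the 100 most like it and 67.1 kb for the 100 most opposite; this is no separate observation, because the r of -0.90 ties the lists together, with 48 genes shared between those most like Pvalb and those most opposite to Calb2. For Calb1 the medians were 30.1 and 29.3 kb. The part of the second principal component and of gene size in the opposition of Pvalb and Calb2 was not tested.

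**Figure D5:**
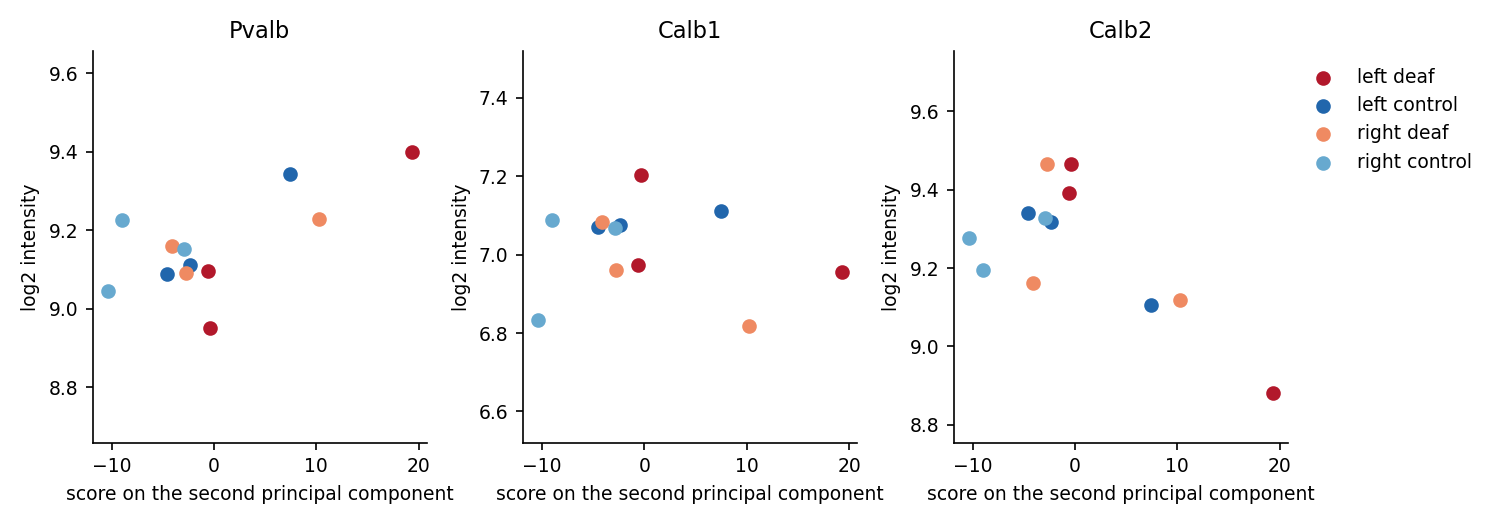
Log2 intensity of each gene against the array's score on the second principal component of all genes, one point per array coloured by group. The 3 arrays with scores of 7.45 to 19.3 have the lowest Calb2 (8.88 to 9.12) and high Pvalb (9.23 to 9.40), while Calb1 on them is between 6.82 and 7.11, within its range on the other arrays save for right deaf 1.

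The cerebellum lies next to the IC, and in it Purkinje cells carry Calb1 and Pvalb and granule cells carry Calb2. Of the 11 granule cell markers measured besides Calb2, 9 had lower means in right deaf than in right control arrays (median change -0.30, against 0.0014 for all genes), and on the left 6 did (-0.043). Their mean gene-centred value was -0.21 to -0.073 in right deaf arrays against 0.051 to 0.54 in right control arrays, and -0.13 to -0.022 in left deaf arrays against -0.23 to -0.018 in left control arrays. In 6 of the 11 the right-side groups did not overlap, against 7.48% of all genes. Gabra6, the defining granule cell receptor subunit gene, was at 2.51, 3.19 and 2.83 in right deaf arrays, against 3.86, 3.99 and 5.30 in right control arrays. Many of these markers were dim: 4 of the 11 had mean levels above the median of all genes, and Gabra6 was brighter than 11.3% of genes. Calb2 overlapped between right deaf (9.12 to 9.46) and right control arrays (9.20 to 9.33). It was at 9.28 on right control 3, the array with the most Gabra6.

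Of the 9 Purkinje cell markers besides Calb1 and Pvalb, 7 had lower means in right deaf than in right control arrays and 8 in left deaf than in left control arrays (median changes -0.051 and -0.13). The groups did not overlap for 2 of the 9 on the right and 3 on the left, against 7.48% and 10.3% of all genes. The right-side median rested on right control 3: without it, an omission chosen for the marker lists after the data were seen, 6 of 9 were lower and the median change was -0.0074, while for granule cell markers 10 of 11 were lower (-0.23). Pcp2, which defines Purkinje cells, was at 4.82, 4.12 and 5.10 in right deaf arrays, against 5.19, 4.78 and 5.74 in right control arrays. On right control 3, where the Purkinje score was highest at 0.30, Calb1 (6.83) and Pvalb (9.05) were at the lowest values of their group. Of 11 myelin and oligodendrocyte markers, 11 had lower means in right deaf than in right control arrays (median change -0.098), and 8 in left deaf than in left control arrays (-0.062). Deaf and control groups did not overlap for 5 of the 11 on the right and 4 on the left, against 7.48% and 10.3% of all genes. Without right control 3, 9 of the 11 were lower on the right (-0.17). Of 17 markers of meninges and fibroblasts, 17 had higher means in left deaf than in left control arrays (median change 0.23, against -0.0051 for all genes), 0 of them without overlap. Their mean gene-centred value was -0.060, 0.59 and -0.14 in left deaf arrays, against 0.12, -0.22 and -0.40 in left control arrays. Left deaf 2 thus stood well above the other left arrays, and right deaf 2 (0.47) and right control 1 (0.54) were high as well. On the right 7 of the 17 markers had higher means in deaf arrays (-0.0077), and 3 without right control 3 (-0.20). Of 12 neuron markers, 11 had higher means in right deaf than in right control arrays (median change 0.049), but 6 without right control 3 (0.00072). On the left 7 of the 12 were higher in deaf arrays (0.012). Of 9 astrocyte markers, 8 were lower in deaf arrays on the right (-0.048) and 7 on the left (-0.042). Of 14 forebrain markers, 10 were lower on the right (-0.14) and 7 on the left (0.0031). Without right control 3, 6 astrocyte and 9 forebrain markers were lower on the right. The part of these shifts in the levels of the 3 genes was not tested.

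Other genes of calcium handling did not pass between deaf and control IC either. Of 48 other EF-hand genes measured (calmodulins, S100 proteins, neuronal calcium sensors and relatives), 0 passed in any of the 6 comparisons, and 0 had an unadjusted p under 0.05 for deaf against control on the left, on the right or averaged. Their median change was 0.0056 on the left and 0.0056 on the right, beside -0.0051 and 0.0014 for all genes. Between the sides of control rats 4 of the 48 had an unadjusted p under 0.05, beside 4.95% of all genes; all 4 were lower on the left and 0 passed the adjustment: Efhd2 (-0.27, SE 0.12), S100a6 (-0.32, SE 0.14), Ncald (-0.20, SE 0.086) and Cabp2 (-0.31, SE 0.14), each with limma adjusted p = 0.934. In deaf rats Kcnip2, a potassium channel-interacting protein gene, was at -0.26 left minus right (SE 0.11, limma adjusted p = 1.00). In the interaction, S100a6 was at 0.56 (SE 0.19) and Kcnip2 at -0.34 (SE 0.15), each with limma adjusted p = 1.00.

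Of 33 genes for calcium pumps, exchangers, store and release proteins, 0 passed, with median changes of 0.022 on the left and 0.021 on the right. Mcub, the gene of an inhibitory subunit of the mitochondrial calcium uniporter, was at 5.84, 5.68 and 5.52 in right deaf arrays, against 5.37, 5.34 and 5.43 in right control arrays. These groups did not overlap, which held for 7.48% of all genes on the right, and the difference of 0.30 (SE 0.086) had a limma adjusted p of 1.00. Left deaf arrays (5.61, 5.57 and 5.62) lay below left control arrays (5.68, 5.65 and 5.71), again without overlap, as in 10.3% of all genes on the left. In control rats, left minus right was 0.30 for Mcub (SE 0.086) and 0.33 for Casq2 (SE 0.14), the calsequestrin-2 gene, each with limma adjusted p = 0.934, and the interaction of Mcub was -0.39 (SE 0.12, limma adjusted p = 1.00).

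Of 21 genes usually found with parvalbumin in fast-firing neurons (Kv1 and Kv3 channels, neurofilaments, perineuronal net and GABA genes), 0 passed, and the median change was -0.0067 on the left and -0.048 on the right. Nefh, the heavy neurofilament gene, was at 9.21, 9.25 and 9.31 in right deaf arrays, against 9.76, 9.47 and 9.42 in right control arrays, a difference of -0.29 (SE 0.11, limma adjusted p = 1.00). Scn4b, a sodium channel beta subunit gene, was at 7.75, 7.94 and 7.78 in right deaf arrays, against 8.24, 8.05 and 7.99 in right control arrays, a difference of -0.27 (SE 0.10, limma adjusted p = 1.00). Of the 21 genes, 3 had right-side groups that did not overlap (Nefh, Scn4b and Hapln1, a perineuronal net link protein gene), against 7.48% of all genes. All 3 were lower in deaf arrays. On the left 3 did not overlap (Nefl, Gad1 and Esrrg), all lower in deaf arrays, against 10.3% of all genes. Between the left and right IC of deaf rats 6 did not overlap (Nefh, Nefl, Hapln4, Gad1, Gad2 and Esrrg), against 8.31% of all genes. Of these 6, 5 were lower on the left and 1 was higher. On the left, Nefh was at 9.20, 9.13 and 9.09 in deaf arrays, against 9.52, 9.32 and 9.20 in control arrays, and averaged over both sides it was at -0.25 (SE 0.076, limma adjusted p = 1.00). Scn4b lay the other way on the left, at 8.04, 8.04 and 7.90 in deaf arrays, against 7.92, 7.99 and 7.74 in control arrays, and its interaction was 0.38 (SE 0.14, limma adjusted p = 1.00). In control rats, left minus right was -0.22 for both Vamp1 (SE 0.085), a synaptic vesicle protein gene, and Hapln1 (SE 0.087), each with limma adjusted p = 0.934.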

How the data were processed

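Per the labels' protocols, Trizol-extracted total RNA was converted to cDNA, which was cut enzymatically, end-labelled with biotin and read on 1-colour Affymetrix arrays. The deposited values are log2 intensities, which the authors had made comparable between arrays: they ran from 1.33 to 13.1, the median of each array was 5.34, and the 12 arrays differed by at most 0.0995 at any rank. No source used here names the software that summarised and normalized the arrays, and that the scale is log2 was read from the values. The number of arrays limits the precision.

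Probe names came from the platform annotation. Of 29489 probes 18511 had 1 gene symbol, 575 several and 10403 none, and the brightest probe per symbol gave 18166 genes. Dim genes were kept. The 4 group means were modelled over all 12 arrays by limma 3.58.1 (R 4.3.3; 8 residual and 3.79 prior degrees of freedom), two-sided, with Benjamini-Hochberg adjustment over all genes and a threshold of 0.05. Permutation tests used SciPy 1.17.1, with 100000 resamples for correlations over 12 arrays. Genes most like each member were the 5 of highest and 3 of lowest Pearson's r among named genes above the median level; listed genes are named where the unadjusted p was under 0.05, up to 4 per list and comparison. The 3 genes and the lists were chosen with earlier results of these data known. Left and right arrays of one number were not treated as pairs, since the labels do not say that they share animals. The correlation of their deviations from the group means ran from -0.056 to 0.15. Left arrays correlated most with the right array of their own number for control 1, control 3 and deaf 1. For control 2, deaf 2 and deaf 3 they correlated most with another number. Genomic span came from RefSeq (GRCr8), by symbol.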

Additional observations from a re-analysis of the deposited data

How the results depend on the processing

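The changes of Pvalb, Calb1 and Calb2 in the 6 comparisons (18 values) were also estimated under alternatives. These gave 201 values under other settings and 216 with 1 array left out. Among the 201 are the differences of group medians, which have no p-value and so could not pass. No value that had a p-value passed the threshold (smallest limma adjusted p = 0.716). Directions were not stable: 10 of the 201 and 47 of the 216 changed sign, where 84 and 144 of them differed at all from the reported value. Calb2 on the left, deaf minus control, was at 0.0034 after median centring, 0.0033 with array weights and 0.074 as a difference of group medians. Calb2 in deaf rats, left minus right, was at 0.0049 after quantile normalization, 0.0065 after median centring, 0.053 with array weights and 0.23 by medians. In control rats, left minus right, Pvalb was at -0.0062 with array weights and -0.041 by medians, and Calb2 at 0.039 by medians. The cause of these sign changes was not tested.

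With 1 array left out, the left change ran from -0.16 (without left deaf 1) to 0.068 (without left deaf 3) for Pvalb, from -0.12 to 0.0016 for Calb1 and from -0.12 (without left deaf 3) to 0.17 (without left deaf 1) for Calb2. The right change ran from -0.029 to 0.061, from -0.12 to 0.026 and from -0.13 to 0.046 for the genes in the same order, and the mean of both sides from -0.069 to 0.043, from -0.083 to -0.0083 and from -0.068 to 0.078. Left minus right ran from -0.14 to 0.088, from 0.011 to 0.15 and from -0.11 to 0.18 in deaf rats, and from -0.043 to 0.086, from 0.0082 to 0.14 and from -0.055 to 0.061 in control rats. The interaction ran from -0.18 to 0.049, from -0.079 to 0.082 and from -0.099 to 0.19.

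Over all genes, 670 (left), 783 (right), 823 (mean of both sides), 607 (deaf, left minus right), 900 (control, left minus right) and 622 genes (interaction) had an unadjusted p under 0.05, against 0 past the adjusted threshold in each. On the left and in deaf left minus right 1 gene, Vgf, passed among genes above the median level; with a variance trend and robust estimation Vgf passed in both and Or52a5b in the second, which makes 1 and 2 genes. With 1 array left out 0 to 1 genes passed, namely Vgf without left deaf 3 and Clec2d2 without right control 3. The replicate block by number gave 1 gene, RGD1565183, in control left minus right and in the interaction. The replicate block changed no other count past the threshold and no call of the 3 genes, for which the block by number leaves the differences as they are. These genes were named after their values were seen.

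Quantile normalization, median centring and the omission of the 3 arrays highest on the second principal component, chosen after the data were seen, gave r = -0.92, -0.88 and -0.71 for Pvalb and Calb2. In the last of these r was 0.048 for Calb1 and Calb2, against 0.26 over all arrays.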
